A study of Mus musculus with 7 samples.

Results

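The globin and erythroid genes described here are 9 of the 48440 genes in a count table of embryonic mouse retina, taken by gene name, in all 7 libraries. They are 7 globin genes (*Hba-a1*, *Hba-a2*, *Hba-x*, *Hbb-bs*, *Hbb-bt*, *Hbb-y* and *Hbb-bh1*), the red cell enzyme of haem synthesis *Alas2*, and the anion exchanger of the red cell membrane *Slc4a1*. The questions were how embryonic and adult globins compare, and which pools of retina hold blood RNA.

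Red blood cells carry haemoglobin, a protein assembled from alpha-type and beta-type globin chains around haem. In the mouse, the first red cells come from the yolk sac and make the embryonic chains *Hba-x* (alpha-type), *Hbb-y* and *Hbb-bh1* (beta-type), while the red cells that follow from the fetal liver make the adult chains *Hba-a1* and *Hba-a2* (alpha-type) and *Hbb-bs* and *Hbb-bt* (beta-type). Before birth the mouse eye is supplied by vessels of the choroid and of the vitreous, and whatever blood remains in dissected tissue enters its RNA.

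RNA was sequenced from pooled retinas of mouse embryos at embryonic day 16 (E16). Every group carries the Chx10-Cre transgene, which drives Cre recombinase in retinal progenitors. The control (WT, 1 library) has Chx10-Cre alone, Het (3 libraries) is *Chx10-Cre;Ptbp1 lox/WT*, and KO (3 libraries) is *Chx10-Cre;Ptbp1 lox/lox*. Red cells do not derive from retinal progenitors, and whether this Cre acted in the cells that gave the globin counts was not tested. The WT pool held 6 retinas, Het1, Het2 and Het3 held 5, 5 and 6, and KO1, KO2 and KO3 held 4, 4 and 6. Total counts ran from 120593979 in Het2 to 171117305 in Het1. Replicates are pools, so p-values measure the spread between these pools.

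The targeted gene, *Ptbp1*, which encodes a splicing repressor, was at 381 CPM (counts relative to the TMM-scaled library size) in WT, at 210, 219 and 234 CPM in Het1 to Het3, and at 27.9, 6.04 and 46.9 CPM in KO1 to KO3. The highest KO library lay well under the lowest Het library. The labels give the genotype of each library and not a level of this gene. In edgeR's quasi-likelihood test of KO against Het, the log2 fold change was -3.04 ± 0.64 (SE, n = 3 per group) with a Benjamini-Hochberg adjusted p of 0.0316. Retinal identity was checked with 18 progenitor and neuron genes, whose summed level ran from 3629 CPM in KO1 to 3972 CPM in WT, with *Pax6* and *Six3* among the most abundant. Of these 18, *Tfap2a* was called higher in KO, and *Atoh7*, *Isl1* and *Elavl4* lower. One Het library stood apart in other tissues. Het1 held 319 CPM over 13 skeletal muscle genes, against 8.75 to 11.4 CPM in the rest, and 563 CPM over 10 pigment epithelium genes, against 45.1 to 85.3 CPM.

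The adult alpha-globin gene *Hba-a1* was at 109 CPM in WT, at 82.2, 52.4 and 165 CPM in Het1 to Het3, and at 17.8, 12.3 and 122 CPM in KO1 to KO3. The lowest libraries were KO1 and KO2, and KO3 lay above Het1 and Het2, so the groups overlapped. The log2 fold change was -0.97 ± 0.90 (SE, n = 3), with an edgeR adjusted p of 0.499. In bulk RNA, fewer cells of a type and less RNA per cell cannot be told apart, here and for every gene below.

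*Hba-a2*, the other adult alpha-globin gene, was at 45.3 CPM in WT, at 42.5, 25.3 and 60.6 CPM in Het1 to Het3, and at 0.0302, 0.0304 and 6.46 CPM in KO1 to KO3. These levels rest on 6734 counts in WT, on 7225, 3016 and 9190 in the Het libraries, and on 4, 4 and 861 in the KO libraries. All KO libraries were below all Het libraries, and in KO1 and KO2 the gene was close to the floor of 3 counts while *Hba-a1* had 2365 and 1615 counts there. The group means were 42.8 ± 17.6 CPM in Het and 2.17 ± 3.71 CPM in KO (SD, n = 3). The log2 fold change was -4.30 ± 1.41 (SE), with an unadjusted edgeR p of 0.020 and an adjusted p of 0.0988, so it did not pass the test.

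The embryonic alpha-type gene *Hba-x* (zeta-globin) was at 0.296 CPM in WT, at 0.153, 0.134 and 0.547 CPM in Het1 to Het3, and at 0, 0.0076 and 0.0976 CPM in KO1 to KO3. No KO library reached the lowest Het library, and KO1 and KO2 held 0 and 1 counts. Its log2 fold change was -2.96 ± 1.13 (SE, n = 3), with an edgeR adjusted p of 0.141.

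**Figure D1:**
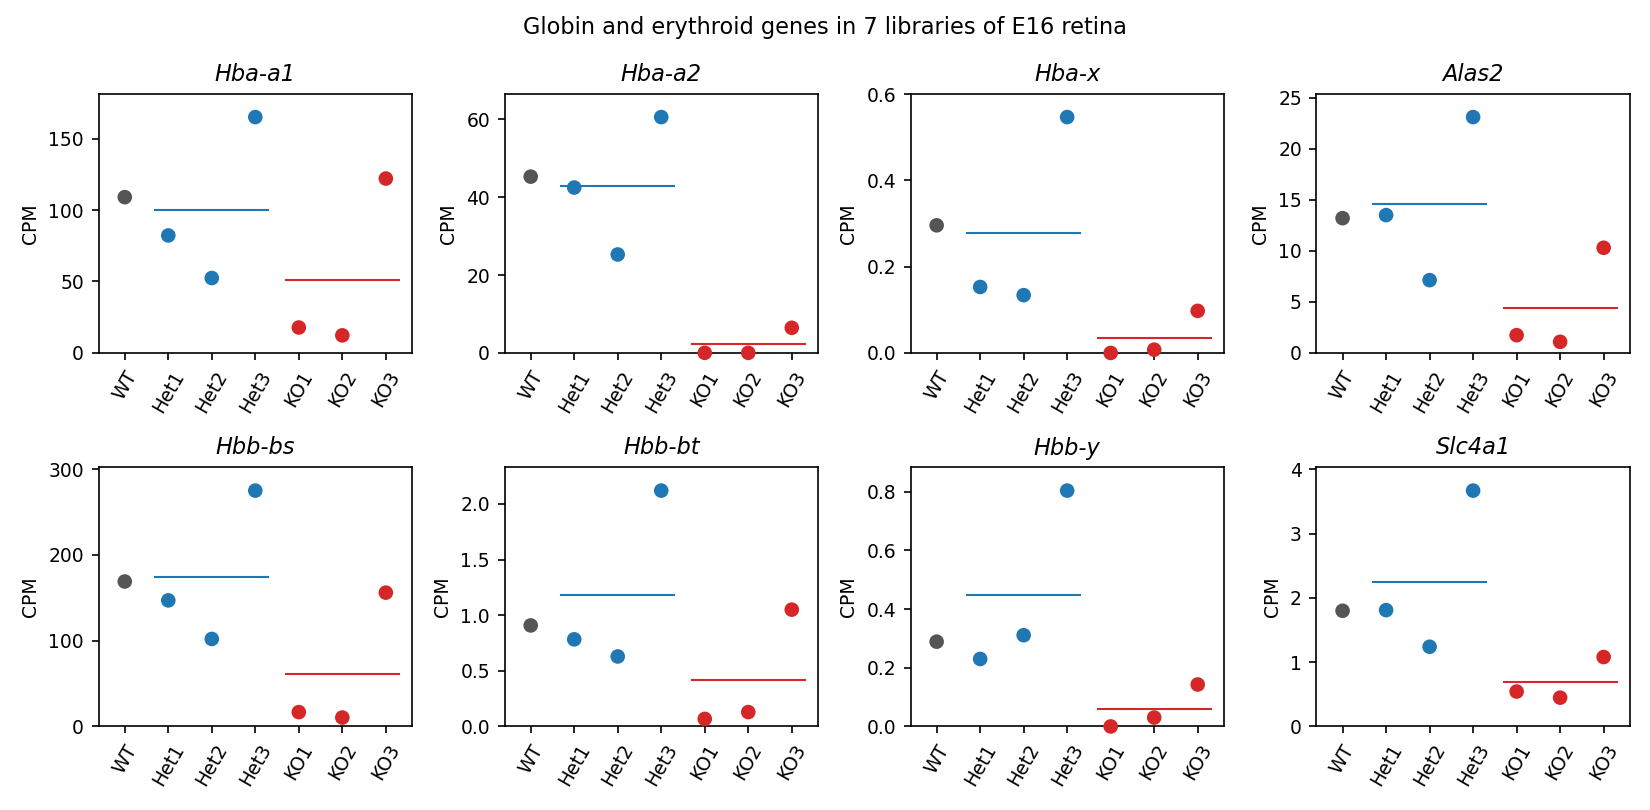
Level of each tested gene in CPM on linear axes, 1 panel per gene and 1 point per library, WT in grey, Het in blue and KO in red, with horizontal lines at the Het and KO means. In all 8 panels KO1 and KO2 are the lowest libraries, and KO3 lies within the range of the Het libraries for *Hba-a1*, *Hbb-bs*, *Hbb-bt* and *Alas2*.

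The adult alpha-globin genes lie on chromosome 11 of GRCm38, *Hba-a1* (ENSMUSG00000069919.7) at chr11:32283511-32284465 and *Hba-a2* (ENSMUSG00000069917.7) at chr11:32296489-32297298, and *Hba-x* lies before them at chr11:32276400-32278116. Each of the pair has a coding sequence of 429 bases in 3 exons, and the copies differ at 1 position, C381T, counted from the A of the start codon, with the *Hba-a1* base first. That position is the 3rd base of codon 127. It is shown within 41 bases of coding sequence, the differing base in capitals, because the reads that tell the copies apart must come from here or from outside the coding part. The *Hba-a1* stretch is at chr11:32284323-32284363 and that of *Hba-a2* at chr11:32297140-32297180, both on the plus strand.
Hba-a1: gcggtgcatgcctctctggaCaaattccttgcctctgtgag
Hba-a2: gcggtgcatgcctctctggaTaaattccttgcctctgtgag
Of the 455 stretches of 100 bases in the annotated *Hba-a2* transcript, 116 (25.5%) are not found in that of *Hba-a1*, and 261 of 600 (43.5%) the other way. How reads that map to both genes were counted, and whether strand was used, is not given in the sources used here. The division of counts between *Hba-a1* and *Hba-a2* is therefore uncertain in every library. Their sum does not depend on how shared reads were divided, but it would be too low if such reads were dropped. Shares and ratios that use the sum carry this limit.

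As a share of the summed *Hba-a1* and *Hba-a2* counts, *Hba-a2* took 29.4% in WT, 34.1%, 32.6% and 26.9% in Het1 to Het3, and 0.169%, 0.247% and 5.02% in KO1 to KO3. The KO range did not meet the range of the other 4 libraries. The 95% Wilson interval ran from 26.4% to 27.3% in Het3, the lowest Het library, and from 4.7% to 5.35% in KO3, the highest KO library. Such intervals cover counting error only. The mean was 31.2% ± 3.81 in Het and 1.81% ± 2.78 in KO (SD, n = 3). For a single value, an exact permutation test of 3 libraries against 3 cannot go below 0.1, and none was run on this share, which was chosen after its values were seen.

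The adult beta-globin gene *Hbb-bs* was at 169 CPM in WT, at 147, 102 and 275 CPM in Het1 to Het3, and at 16.7, 10.4 and 156 CPM in KO1 to KO3. Het3 was highest and KO1 and KO2 lowest, with KO3 among the Het libraries. The log2 fold change was -1.51 ± 1.0 (SE, n = 3) and the edgeR adjusted p 0.352.

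*Hbb-bt*, its near-copy, was at 0.908 CPM in WT, at 0.783, 0.629 and 2.12 CPM in Het1 to Het3, and at 0.0679, 0.129 and 1.05 CPM in KO1 to KO3. It followed the same order of groups, with KO3 again among the Het libraries, and had a log2 fold change of -1.50 ± 1.01 (SE, n = 3) with an edgeR adjusted p of 0.359. *Hbb-bt* took 0.535% of the adult beta-type counts in WT, 0.529% to 0.764% in Het and 0.405% to 1.23% in KO. The coding sequences of the beta pair, 444 bases each, also differ at 1 position, C417T with the *Hbb-bs* base first, the 3rd base of codon 139. They are shown over 41 bases with that base in capitals, 5′ to 3′ on the minus strand, *Hbb-bs* from chr7:103826672-103826712 and *Hbb-bt* from chr7:103812663-103812703.
Hbb-bs: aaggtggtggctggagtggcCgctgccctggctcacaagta
Hbb-bt: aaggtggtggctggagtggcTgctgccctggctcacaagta
Of the 529 stretches of 100 bases in the annotated *Hbb-bs* transcript, 198 (37.4%) are not found in that of *Hbb-bt*, and 273 of 604 (45.2%) the other way, so the division of counts within this pair is uncertain too.

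The embryonic beta-type gene *Hbb-y* was at 0.289 CPM in WT, at 0.230, 0.311 and 0.804 CPM in Het1 to Het3, and at 0, 0.0304 and 0.143 CPM in KO1 to KO3. The KO libraries were all below the Het libraries. Its log2 fold change was -2.94 ± 1.04 (SE, n = 3), with an unadjusted edgeR p of 0.0272 and an adjusted p of 0.119. *Hbb-bh1*, the other embryonic beta-type gene, had 2 counts in WT, 2, 2 and 0 in the Het libraries and 0 in every KO library. It did not pass the filter on low counts and was not tested, and no fold is given, since no library exceeded the floor. The coding sequence of *Hbb-y* differs from that of *Hbb-bs* at 114 of 444 positions, and that of *Hba-x* from *Hba-a1* at 163 of 429, and no 100-base stretch is shared between an embryonic and an adult transcript, so these counts are not subject to the same uncertainty.

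Haem synthesis in red cells starts with *Alas2*. It was at 13.2 CPM in WT, at 13.5, 7.13 and 23.1 CPM in Het1 to Het3, and at 1.74, 1.09 and 10.3 CPM in KO1 to KO3. KO3 lay between Het2 and Het1, and the other KO libraries lay below every Het library. The log2 fold change was -1.74 ± 0.88 (SE, n = 3), with an edgeR adjusted p of 0.234.

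The membrane gene *Slc4a1*, which exchanges chloride for bicarbonate, was at 1.80 CPM in WT, at 1.81, 1.24 and 3.67 CPM in Het1 to Het3, and at 0.543, 0.448 and 1.08 CPM in KO1 to KO3. The groups did not overlap. With -1.70 ± 0.50 (SE, n = 3) on the log2 scale it had the lowest p of the members by edgeR, 0.0118 unadjusted and 0.0743 adjusted.

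Of the 9 members, 8 passed the filter. By edgeR, 0 of these 8 were called between KO and Het (an adjusted p under 0.05 together with a change of over 1.2-fold either way), where 7.22% of the 20019 genes tested were called. At an unadjusted p below 0.05 there were 4 of 8 (*Hba-a2*, *Hba-x*, *Hbb-y* and *Slc4a1*), where 29.7% of all genes passed. The same 4 had every KO library below every Het library, which held for 17.7% of all genes. DESeq2 called 3 members lower, *Hba-x*, *Hbb-y* and *Slc4a1*, and 11.6% of all genes in either direction. The median log2 fold change over the 8 members was -1.72, against -0.005 over all genes tested.

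The number of members called by edgeR depended on KO3. Without this library, edgeR called 8 of 8 members lower, where 4.42% of genes were called lower in that fit. The log2 fold changes then ran from -2.17 for *Slc4a1* to -10.42 for *Hba-a2*. When KO1 or KO2 was left out the edgeR count was 0 of 8, with 3 and 2 members at an unadjusted p below 0.05. It was 0 of 8 when any Het library was left out, with 4, 4 and 1 for Het1 to Het3. With KO3 kept and the replicate number as a block, edgeR called 4 of 8.

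KO1 and KO2 were the 2 lowest of the 7 libraries for 8 of 8 members, and this order held for 12.2% of all genes tested. It was counted after the values were seen.

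Levels per kilobase of annotated exon allow for the length of a gene, but not for reads that map to both genes of a pair. Ranks that involve *Hba-a1*, *Hba-a2*, *Hbb-bs* or *Hbb-bt* are therefore uncertain. *Hbb-bs* had the highest mean over the 7 libraries, 163 CPM per kb. It was followed by *Hba-a1* at 98.6 and *Hba-a2* at 38.6 CPM per kb. The ranges of these genes overlapped from library to library, and *Hbb-bs* and *Hba-a1* were close in KO1 and KO2, where *Hba-a1* was at 22.0 and 15.1 CPM per kb and *Hbb-bs* at 21.7 and 13.5. The rank of *Hba-a2* did not hold in these 2 libraries, where it was at 0.0452 and 0.0456 CPM per kb, below *Alas2* (0.722 and 0.452), *Hbb-bt* (0.0966 and 0.184) and *Slc4a1* (0.111 and 0.0917). By the mean over all libraries *Alas2* came next at 4.17 CPM per kb, then *Hbb-bt* at 1.15. The embryonic *Hbb-y* and *Hba-x* had means of 0.408 and 0.188 CPM per kb, with *Slc4a1* between them at 0.309 and *Hbb-bh1* last at 0.0098. These 3 genes between 0.188 and 0.408 were not separated by more than the spread of their libraries.

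The 7 globin genes together took 0.0324% of all counts in WT, 0.0271%, 0.0178% and 0.05% in Het1 to Het3, and 0.00343%, 0.00230% and 0.0295% in KO1 to KO3. Every library therefore held globin RNA, and the highest, Het3, held 21.8 times the share of the lowest, KO2. The means were 0.0316% ± 0.0165 in Het and 0.0118% ± 0.0154 in KO (SD, n = 3), a difference of -0.0199 points beside a spread of 0.016 within groups. It was -0.0107 points without Het3. KO3 lay within the range of the Het libraries, with a 95% Wilson interval of 0.0293% to 0.0298%.

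Among beta-type counts, the embryonic genes *Hbb-y* and *Hbb-bh1* took 0.178% in WT (95% Wilson interval 0.133% to 0.238%), 0.163%, 0.319% and 0.290% in Het1 to Het3, and 0%, 0.288% and 0.0906% in KO1 to KO3. In KO1 the count was 0 of 2222, which allows a share of up to 0.135%, and in KO2 it was 4 of 1389, with an interval of 0.112% to 0.738%. The groups overlapped, with means of 0.257% ± 0.0831 in Het and 0.126% ± 0.147 in KO (SD, n = 3). The difference of the means was -0.131 percentage points, beside a spread of 0.12 within groups, and it became -0.0679 without KO1 and -0.212 without KO2. No test was run on it.

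Among alpha-type counts, *Hba-x* took 0.192% in WT (95% Wilson interval 0.143% to 0.257%), 0.123%, 0.173% and 0.242% in Het1 to Het3, and 0%, 0.0617% and 0.0757% in KO1 to KO3. The KO shares lay below the Het shares. In KO1 0 of 2369 counts allow up to 0.127%, which is above the Het1 value, and in KO2 the interval of 0.0109% to 0.349% from 1 count covers every Het value. The means were 0.179% ± 0.0600 in Het and 0.0458% ± 0.0403 in KO (SD, n = 3). With *Hba-a1* alone as the adult gene the difference of the means was -0.21 percentage points, and with *Hba-a2* alone it turned to 6.57. That value rests on the 1 *Hba-x* count beside 4 *Hba-a2* counts in KO2, while KO1 had 0 beside 4. With the adult genes summed, embryonic chains of either type were at 0.319% or less in every library.

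**Figure D2:**
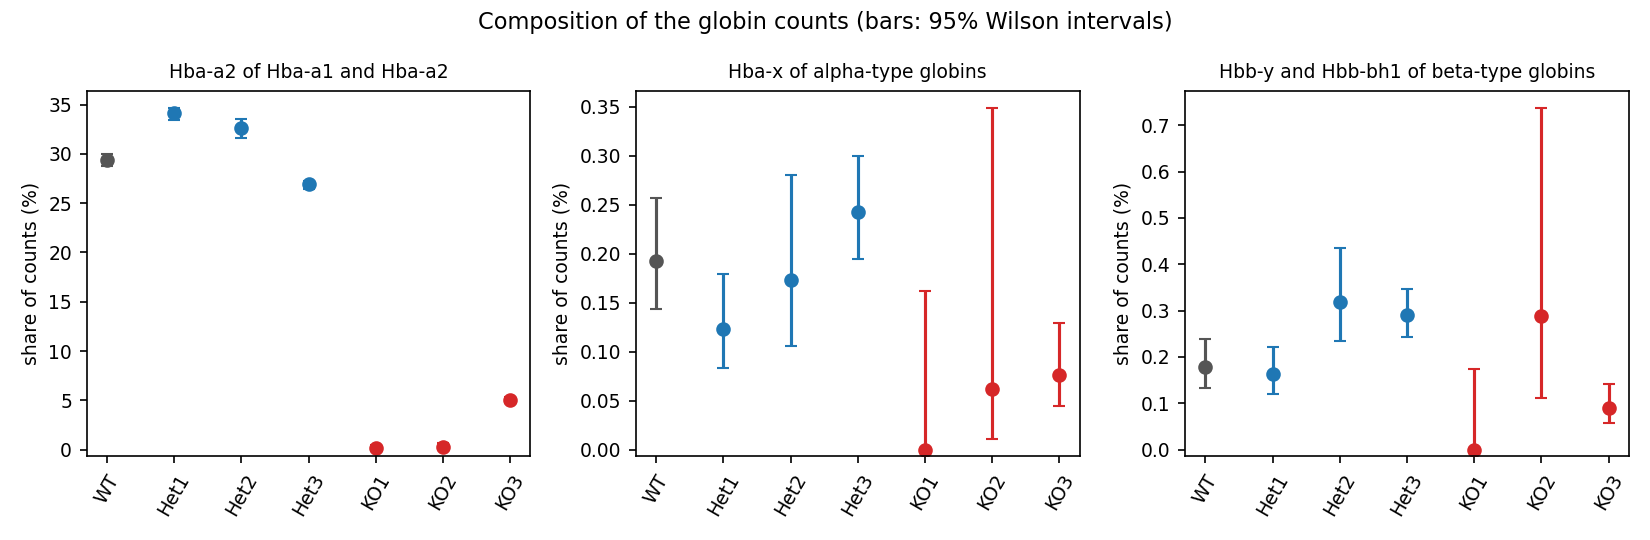
Shares of globin counts in percent, 1 point per library with its 95% Wilson interval, WT in grey, Het in blue and KO in red. The left panel shows *Hba-a2* at 26.9% to 34.1% in WT and Het and at 0.169% to 5.02% in KO, and the middle and right panels show the embryonic shares, at 0.319% or less, with wide intervals in KO1 and KO2.

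Alpha-type counts over beta-type counts gave a ratio of 0.907 in WT, of 0.843, 0.759 and 0.814 in Het1 to Het3, and of 1.07, 1.17 and 0.820 in KO1 to KO3. The ratio was highest in KO1 and KO2, and KO3 was within the Het range. *Hba-a1* counts over *Hbb-bs* counts gave 0.643 in WT, 0.559, 0.516 and 0.601 in Het1 to Het3, and 1.07, 1.18 and 0.784 in KO1 to KO3. Here every KO library, KO3 included, lay above WT and Het. Any link to the low *Hba-a2* counts in KO was not tested. *Alas2* followed the adult globins closely, with 40.9 counts per 1000 adult globin counts in WT, 49.7, 39.6 and 46.1 in Het1 to Het3, and 50.1, 47.6 and 35.9 in KO1 to KO3. The highest of these was 1.40 times the lowest, over libraries whose globin share spanned 21.8 times. *Slc4a1* per 1000 adult globin counts was 5.55 in WT, 6.65, 6.90 and 7.31 in Het1 to Het3, and 15.7, 19.6 and 3.78 in KO1 to KO3. The KO libraries held both the highest values, KO1 and KO2, and the lowest, KO3, a span of 5.20 times, so *Slc4a1* varied less between libraries than the globins did.

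Other genes of red cell biology had the order of the globins in part. Of 8 further haem synthesis genes, *Cpox* was called lower in KO (log2 fold change -0.42, edgeR adjusted p 0.0202) and 0 were called higher, with a median of -0.15. *Alas1*, the enzyme that starts haem synthesis outside red cells, ran from 26.3 to 27.4 CPM in KO and from 30.3 to 32.7 in Het, with an edgeR adjusted p of 0.0214 and a log2 fold change of -0.23, too small to be called. The most abundant was *Alad*, at 48.4 to 53.4 CPM in every library, and KO1 and KO2 were lowest for 1 of 8. Of 8 genes of iron uptake and transfer, led by the ferritin chains *Fth1* and *Ftl1*, edgeR called 0, with 2 at an unadjusted p below 0.05 and 1 called by DESeq2.

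Of 17 genes of the red cell membrane and its skeleton, 15 were tested. *Sptb* (0.44) and *Dmtn* (0.29) were called higher by log2 fold change, with edgeR adjusted p of 0.0354 and 0.0329, and 0 lower. The most abundant were *Epb41* and *Add2*, at 600 to 726 and at 245 to 284 CPM. KO1 and KO2 were lowest for 5 of 15 (33.3%, beside 12.2% of all genes).

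Of 12 erythroid transcription factors, 10 were tested, and *Zfpm1*, a cofactor of GATA proteins, was called lower (-0.33, edgeR adjusted p 0.0071). *Myb*, *Ldb1* and *Bcl11a* were the most abundant, at 56.1 CPM or more in every library, and *Gata1* was at most at 0.0593 CPM. *Klf1*, the activator of the adult beta-globin gene, was at 0.410 CPM in WT, 0.371 to 0.455 in Het and 0.430 to 0.480 in KO, so it did not show the order of the globins. Of the 13 found of 14 other erythroid genes, 11 were tested and *Car2* was called higher (0.79, edgeR adjusted p 0.0143). *Prdx2*, *Mkrn1* and *Bcl2l1* led this list, 8 of the 11 had a negative log2 fold change (median -0.14), and KO1 and KO2 were lowest for 2 of 11. Among the negative ones were 3 genes at 0.283 CPM or less in every library, *Trim10* (-1.41), *Trim58* (-2.06) and *Tspo2* (-2.04), with edgeR adjusted p of 0.495, 0.119 and 0.265. Of the globins of other tissues, *Cygb* was called higher (0.55, edgeR adjusted p 0.0288), at 16.6 to 21.2 CPM in Het and 24.9 to 30.9 in KO, while *Ngb* and *Mb* were at 0.294 CPM or less. The paired theta-globin genes *Hbq1a* and *Hbq1b* were at 0.0461 CPM or less and were not tested, and *Hbb-bh0*, *Hbb-bh2* and *Hbb-bh3* were at 0 in all libraries.

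The low globin libraries KO1 and KO2 were also the pools of 4 retinas, the smallest. Among the pools of 6 retinas, the globin share was 0.0324% in WT, 0.05% in Het3 and 0.0295% in KO3, and in the pools of 5 it was 0.0271% in Het1 and 0.0178% in Het2. No pool of 4 was Het or WT, so pool size and genotype cannot be told apart for these libraries, and the part of pool size was not tested.

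Most markers of blood vessels were lowest in the same libraries as the globins. Of 16 endothelial and pericyte genes, KO1 and KO2 were lowest for 12, beside 12.2% of all genes, and the list's median log2 fold change was -1.43. *Kdr*, its most abundant gene, was called higher in KO (0.44, edgeR adjusted p 0.0186), at 361 CPM in WT, 363 to 376 in Het and 468 to 562 in KO, *Cldn5* was at 11 to 15.2 CPM, and *Pdgfrb* was called lower (-0.41, adjusted p 0.0233). The summed level of the list was 437 CPM in WT, 458, 426 and 463 in Het1 to Het3, and 607, 508 and 538 in KO1 to KO3. Without *Kdr* it was 76.3 CPM in WT, 81.9, 60.5 and 101 in Het1 to Het3, and 45.0, 39.9 and 69.9 in KO1 to KO3. None of the 16 was at 0 in any library. Their part in the globin result was not tested.

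The genes whose profile over the 7 libraries was most like that of the summed adult globins were, in order, *Emcn*, *Igfbp7*, *Eng*, *Robo4*, *Adgrf5*, *AU021092*, *Plvap*, *Gm5874*, *Esam* and *Tie1*. Likeness was measured as the root-mean-square difference of log2 CPM profiles centred on their means, with 0.1 CPM added, and was 0.244 to 0.322 for these 10, against a median of 1.60 over all genes. *Emcn*, *Eng*, *Robo4*, *Plvap*, *Esam* and *Tie1* are known as genes of endothelial cells. *Eng* was at 7.05 CPM in WT, at 7.89, 3.67 and 10.9 CPM in Het1 to Het3, and at 0.694, 0.517 and 4.61 CPM in KO1 to KO3. *Emcn* was at 1.14 CPM in WT, at 1.38, 0.713 and 2.08 CPM in Het1 to Het3, and at 0.0679, 0.0228 and 0.833 CPM in KO1 to KO3. As for the globins, both were lowest in KO1 and KO2 and highest in Het3, which follows from their choice by likeness. Neither passed the test (edgeR adjusted p 0.191 and 0.247). For *Alas2* the nearest 5 were *Emcn*, *Adgrf5*, *Eng*, *Robo4* and *Tie1* (0.121 to 0.164). For *Slc4a1* they were *Myct1*, *Flt4*, *Flt1*, *Adcy4* and *Ecscr* (0.209 to 0.298).

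**Figure D3:**
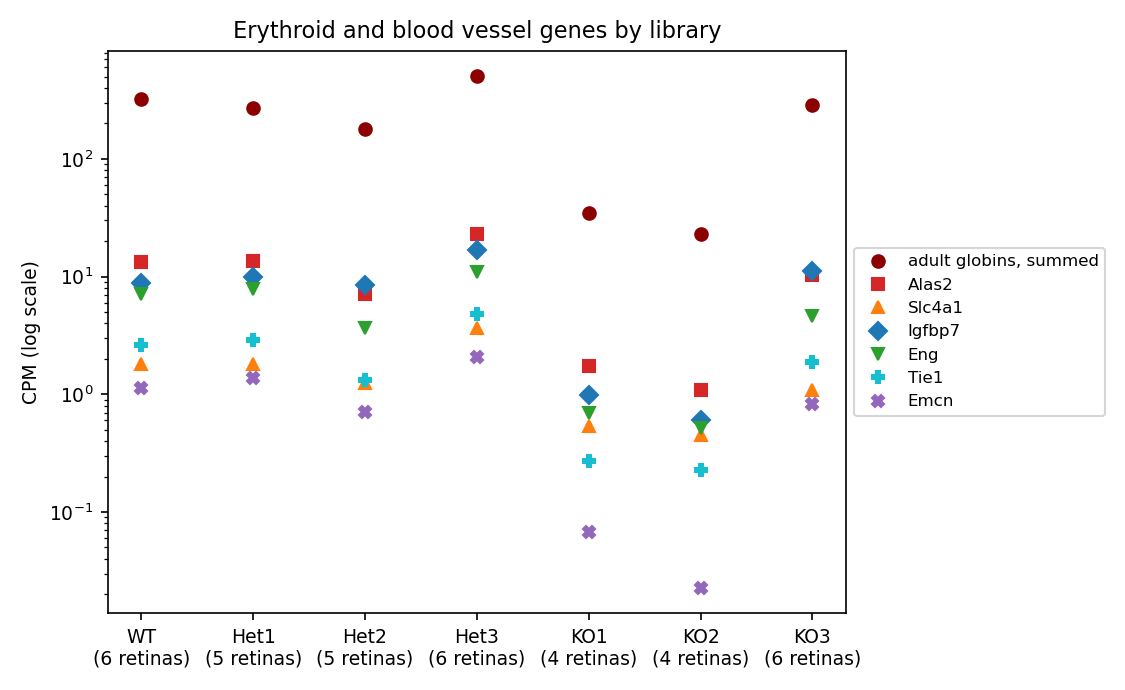
Summed adult globins (*Hba-a1*, *Hba-a2*, *Hbb-bs* and *Hbb-bt*), *Alas2*, *Slc4a1* and the vessel genes *Igfbp7*, *Eng*, *Tie1* and *Emcn* in CPM on a log axis, 1 point per gene and library, with the number of retinas in each pool under its name. All 7 series are lowest in KO1 and KO2, the pools of 4 retinas, and KO3 lies near WT and Het. The vessel genes shown were picked from those of nearest profile, so their order follows from the choice, and *Kdr* and *Cldn5* are not shown.

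Lens genes were low in KO1 and KO2 as well, but KO3 differed from gene to gene. Of 11 tested, 9 had KO1 and KO2 as the lowest libraries, and the summed level of 12 lens genes was 19.1 CPM in WT, 38.0, 73.3 and 101 in Het1 to Het3, and 4.12, 8.33 and 66.3 in KO1 to KO3. *Cryaa*, the alpha-crystallin that led the list, was at 6.97 CPM in WT, at 16.2, 45.1 and 63.5 CPM in Het1 to Het3, and at 0.0528, 1.72 and 21.7 CPM in KO1 to KO3. *Cryab* was called lower (-2.73, edgeR adjusted p 0.0259), and so was *Foxe3* (adjusted p 0.0262), which was at 0 in KO1 and KO2. *Crygs* was at 0 in KO1, and *Lim2* in all libraries. Other genes had KO3 as the highest library, and 6 of the 11 had a negative log2 fold change. *Crygd* was at 6.87 CPM in KO3 against at most 0.554 in Het (2.48, edgeR adjusted p 0.37), *Cryga* at 3.05 against at most 0.283 (2.32, adjusted p 0.363), and *Crybb1*, *Bfsp1* and *Cryba1* were at 11.6, 4.22 and 12.6 CPM there, with log2 fold changes of 0.45, 0.25 and 0.02. The part of lens tissue in the globin result was not tested.

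Other blood cell markers were at low levels. Of 10 platelet genes, 6 were tested and edgeR called 0, with 0 at an unadjusted p below 0.05 and 0 called by DESeq2. *Gp1bb*, *Gp1ba* and *Itga2b* led that list, which summed to 18.7 to 22.0 CPM. *Pf4*, a chemokine stored in platelets, was at 0.619 CPM in WT, at 0.624, 0.546 and 1.19 CPM in Het1 to Het3, and at 0.0075, 0.0152 and 0.818 CPM in KO1 to KO3. KO1 and KO2 were its lowest libraries and Het3 its highest, as for the globins (edgeR adjusted p 0.489). *Gp1bb*, at 14.8 to 18.4 CPM, did not show this.

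Of 12 leukocyte genes, 9 were tested, and *Ptprc*, which encodes the pan-leukocyte antigen CD45, was called higher (0.70, edgeR adjusted p 0.0386). *S100a8*, a protein of neutrophils, was called lower (adjusted p 0.0296), at 0.0527 to 0.185 CPM in Het and at 0, 0 and 0.0075 in KO1 to KO3. *Prtn3* and *Lyz2* led the list and made up most of its sum, which was 6.02 CPM in WT, 6.36 to 6.96 in Het and 6.80 to 9.64 in KO. The median log2 fold change went the other way, at -2.19 with 6 of 9 negative, and KO1 and KO2 were lowest for 3 of 9. Of 11 microglia genes, 2 were called higher, among them *Cx3cr1* (0.71, edgeR adjusted p 0.0429), and 0 lower, and the list, with *Csf1r* and *Cx3cr1* among its most abundant genes, summed to 79.5 CPM in WT, 76.9 to 102 in Het and 107 to 140 in KO. KO1 and KO2 were lowest for 0 of these 11, so the genes of these resident macrophages did not show the order of the globins.

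The skeletal muscle genes tested were highest in Het1 and did not follow the globins either. Of 12 muscle genes tested, led by *Myh3*, *Acta1* and *Mylpf*, edgeR called 0, with 9 at an unadjusted p below 0.05 and 1 called by DESeq2, and KO1 and KO2 were lowest for 1. Of 9 pigment epithelium genes tested, led by *Pmel*, *Dct* and *Rlbp1*, edgeR and DESeq2 called 0, with 2 at an unadjusted p below 0.05 by edgeR. KO1 and KO2 were lowest for 3 of these 9 (33.3%, beside 12.2% of all genes). Not all were highest in Het1, since *Rlbp1* was at 33.8 CPM there and at 38.4 CPM in KO1.

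Neighbours of the alpha-globin genes on chromosome 11 were counted as well. Within 2 *Mb* of chr11:32276400-32297298, edgeR called 10 of 37 tested neighbours (27.0%, beside 7.22% of all genes), 9 of them lower in KO. The share was 6 of 22 (27.3%) within 1 *Mb* and 13 of 64 (20.3%) within 5 *Mb*. Within 2 *Mb*, 35 neighbours had more than 3 counts in some library of both groups, and of these 8 were called, 7 of them lower. *Snrnp25*, *Rhbdf1*, *Nprl3* and *Mpg*, the tested genes just before *Hba-x*, were not called, with log2 fold changes of -0.019, 0.108, 0.138 and 0.175. *Bod1*, a gene of chromosome alignment in mitosis named after its values were seen, was at 81.9 CPM in WT, at 98.6, 84.2 and 65.8 CPM in Het1 to Het3, and at 31.1, 31.0 and 30.7 CPM in KO1 to KO3. All KO libraries, KO3 included, were low, with a log2 fold change of -1.42 ± 0.14 (SE, n = 3) and an edgeR adjusted p of 0.0048. *Sh3pxd2b*, an adaptor protein of podosomes and the nearest called gene, was at 168 CPM in WT, at 182, 164 and 157 CPM in Het1 to Het3, and at 115, 115 and 100 CPM in KO1 to KO3. Here too KO3 sat with KO1 and KO2 (-0.61 ± 0.07, adjusted p 0.0079).

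The 9 neighbours called lower all had KO libraries below Het libraries, and KO1 and KO2 were the lowest for 3 of the 10 called. Near the beta-globin genes (chr7:103812524-103853216), edgeR called 0 of 58 neighbours within 2 *Mb*, with 6 at an unadjusted p below 0.05 and 1 called by DESeq2. Within 5 *Mb* of them edgeR called 6 of 117 (5.13%), with 24 at an unadjusted p below 0.05. Within 2 *Mb* of *Alas2* (chrX:150547375-150570638) 1 of 29 was called (3.45%), and of *Slc4a1* (chr11:102348824-102366203) 7 of 130 (5.38%). Over all genes tested, 7.22% were called and 29.7% had an unadjusted p below 0.05. These distances were chosen after the data were seen, the difference between loci was not tested, and neither was any link between the neighbours and *Hba-a2*.

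**Figure D4:**
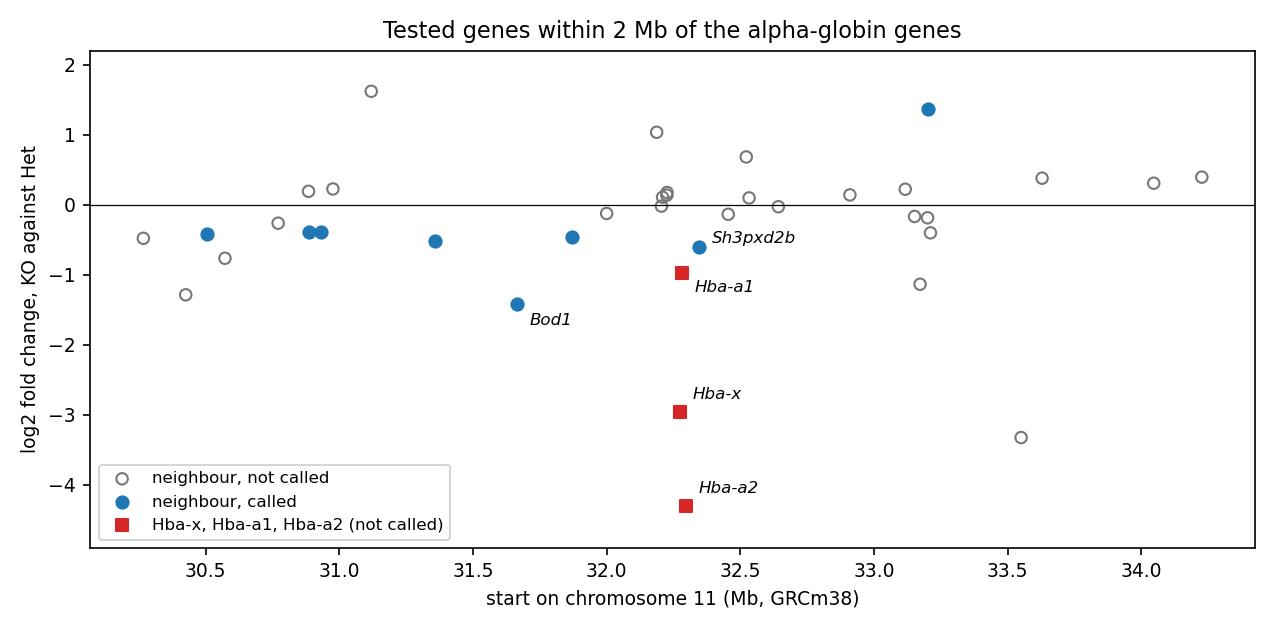
Log2 fold change of KO against Het by gene start on chromosome 11 (*Mb*, GRCm38) for the 35 tested neighbours with more than 3 counts in some library of both groups, filled where called, and for *Hba-x*, *Hba-a1* and *Hba-a2* (red squares). Of the 8 called neighbours shown, 7 lie below 0, and *Hba-a2* is the lowest point at -4.30.

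Promoters, from RefSeq on GRCm38.p6, were found for 7 of the 9 members. Those of *Hba-a1* and *Hba-a2* (250 bases before the start to 50 after it) share an unbroken run of 297 of 300 bases, and those of *Hbb-bs* and *Hbb-bt* a run of 14. Motifs were searched on both strands in the 110 bases before each start. CACCC was in 6 of the 7 (29.6% of all 32851 promoters), CCAAT in 5 (20.2%), a TATA box written as TATAAA or CATAAA in 3 (10.2%), a GATA motif (GATAA or GATAG after A or T) in 2 (11.5%), and the E-box CAGNTG in 2 (23.0%). A match is a description of letters and not a bound site. The stretches of an adult alpha-type, an embryonic beta-type and the haem synthesis gene are shown to the first annotated exon base, 5′ to 3′, with the letters of these motifs, apart from the E-box, in capitals on either strand. They are *Hba-a2* at chr11:32296382-32296488 (plus), *Hbb-y* at chr7:103853217-103853317 (minus) and *Alas2* at chrX:150547307-150547374 (plus). The 3 CACCC matches of *Alas2* lie beyond the end of the stretch shown.
Hba-a2: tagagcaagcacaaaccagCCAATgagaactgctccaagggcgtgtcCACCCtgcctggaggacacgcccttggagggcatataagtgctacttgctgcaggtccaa
Hbb-y: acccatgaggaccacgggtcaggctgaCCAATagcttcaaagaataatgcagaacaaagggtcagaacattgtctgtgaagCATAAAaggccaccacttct
Alas2: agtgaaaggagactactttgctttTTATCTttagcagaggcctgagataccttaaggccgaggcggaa
The longest run that the promoter of *Hba-a2* shares with that of *Hbb-y* is 8 bases, and with that of *Alas2* 9 bases.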

How the data were processed

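RNA of pooled retinas was sequenced in 7 libraries (WT 1, Het 3, KO 3), grouped by genotype as the labels give it. The authors aligned reads with STAR to GRCm38 (mm10 per the labels) and counted them on genes with featureCounts. The deposited values are whole-number counts per gene, without normalization, and no other per-sample column was used. The sample labels and the study's methods name different RNA extraction reagents.

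The analysis used edgeR 4.0.16 (R 4.3.3) with filterByExpr, TMM, and a quasi-likelihood fit of all 7 libraries with a mean per genotype, KO against Het, Benjamini-Hochberg adjusted over 20019 genes. Genes past an adjusted p of 0.05 that changed over 1.2-fold were called. The scripts were tested on simulated data. CPM are counts scaled to TMM library size, and exon lengths and coordinates come from GENCODE on GRCm38. Shares have 95% Wilson intervals, and a count of 0 was read as at most 3. The lists cover other globins, haem synthesis, iron, red cell membrane, erythroid factors, other erythroid genes, platelets, leukocytes, microglia, vessels, muscle, pigment epithelium, lens and retina. Named were all members, *Ptbp1*, each list's called genes (at most 5) and 3 most abundant, and genes of nearest profile, apart from 5 genes whose results are not reported here. Further genes, such as *Klf1*, *Gata1*, *Trim10*, *Trim58*, *Tspo2*, *Pf4*, *Crygs* and lens genes high in KO3, were added for a known role or after their values were seen. Members and lists were chosen with earlier results of these data known.

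Alternatives were DESeq2 1.42.0, RLE and upper-quartile scaling, a minimum of 10 counts in all libraries or no filter, a fit without WT, a replicate block, leaving out single Het or KO libraries, adjusted p alone, and other denominators or weights for the shares. Those for the *Hba-a2* share, the neighbour distances, the order of KO1 and KO2 and list sums without the leading gene were chosen after seeing the data. Splicing and single-cell data were not analysed here.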

Additional observations from a re-analysis of the deposited data

How the results depend on the processing

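Every member tested was lower in KO than in Het under every alternative run (100 of 100 pairs of member and setting), and 15 of the 100 were called. The settings refit the same libraries, so these pairs are not separate evidence. The fit without KO3 gave 8 of the 15 calls. By edgeR 0 of 8 were called, with 4 at an unadjusted p below 0.05. DESeq2 called 3 members, *Hba-x* (log2 fold change -3.00), *Hbb-y* (-2.96) and *Slc4a1* (-1.71). With the replicate number as a block 4 were called, *Hba-x* (-3.32), *Hbb-y* (-3.30), *Alas2* (-2.26) and *Slc4a1* (-1.66), and 1268 of all genes, against 1445 without the block. Deviations of same-numbered Het and KO libraries correlated at -0.197, 0.159 and -0.0739, within the range of -0.304 to 0.262 over all Het and KO pairs. These values cannot show what same-numbered libraries share besides a number, and Het3 and KO3 were both pools of 6 retinas. Leaving out each library gave 0 to 8 members called, 8 only without KO3, and 386 to 1674 of all genes, with 386 without Het2, 496 without Het3 and 612 without KO2. With adjusted p alone 2221 genes were called. The cause of these shifts was not tested.

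Over the libraries left out in turn, the log2 fold change ran from -2.73 to -0.41 for *Hba-a1*, from -10.42 to -3.72 for *Hba-a2*, from -5.90 to -2.01 for *Hba-x*, from -3.68 to -1.02 for *Hbb-bs*, from -3.56 to -0.76 for *Hbb-bt*, from -4.80 to -2.20 for *Hbb-y*, from -3.37 to -1.25 for *Alas2* and from -2.17 to -1.15 for *Slc4a1*. The lowest values are those without KO3. For *Hba-x* it leaves KO libraries at or under the floor, so its size depends on the prior count.

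The globin share and the embryonic beta-type share moved by less than their spread (0.016 and 0.12 points) in all settings run, yet single libraries moved them by over 1.5 times. The globin difference went from -0.0199 to -0.0107 points without Het3, and the beta-type difference from -0.131 to -0.0679 without KO1 and to -0.212 without KO2. The embryonic alpha-type difference was -0.21 points with *Hba-a1* alone and 6.57 with *Hba-a2* alone, where the main value was -0.13. The *Hba-a2* share differed by -29.4 points, by -33.3 with counts per kilobase and by -25.9 with counts pooled over a group. The low counts of embryonic genes in KO1 and KO2 limit what their shares can show.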
